A study of Orbilia oligospora with 9 samples.

Results

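Phosphate acquisition genes are the permeases that carry phosphate or phosphate-bearing molecules into the cell and the phosphatases and phytases that free phosphate from organic matter. This account covers 8 such genes of Orbilia oligospora (also named Arthrobotrys oligospora), a fungus that traps nematodes, out of 12901 loci in the deposited table. They were picked by locus tag: 2 permeases annotated as pho-4 of Neurospora crassa, the glycerophosphoinositol permease GIT3, 2 alkaline phosphatases and 3 genes annotated as phytases or phytase-like. The choice was made with the values of both mutants against wild type (WT) already known. Those values are therefore given below as a description, without a test.

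RNA came from hyphae of strain ATCC 24927 kept for 5 days at 28 °C on TYGA, an agar with tryptone, yeast extract and glucose. The 3 groups of 3 libraries are WT, a mutant of Aomdv1 (an adaptor of mitochondrial fission) and a mutant of Aovps1 (a dynamin-related GTPase). The labels call both mutants knockdowns and the design text calls them deletion mutants. All 9 libraries share the culture day and the treatment label, aerial hyphae differentiation, and the design text speaks of biological replicates without saying whether each had a culture of its own, so p-values measure the spread between these libraries, which may be technical. Levels are in FPKM, a fragment count corrected for gene length and library depth, and differences are on the scale of log2(FPKM + 1), which understates the change of low genes.

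The targeted transcripts were still present under their own label. MDV1 (AOL_s00097g206) stood at 121 ± 10.5 FPKM in WT (SD, n = 3) and at 109 ± 23.5 under the label Aomdv1, and VPS1 (AOL_s00007g394) at 87.1 ± 16.7 in WT and 37.9 ± 13.4 under the label Aovps1. MDV1 was not called different from WT under its own label (-0.17, limma adjusted p = 0.768). VPS1 was called lower under its own label (-1.23, limma adjusted p = 0.0421). Under the label Aomdv1 VPS1 stood at 44.0 ± 9.95 FPKM and was not called (-0.97, limma adjusted p = 0.117). Its difference between the mutants of -0.26 was not called either (limma adjusted p = 0.79). The mutant groups are therefore named by label throughout. The estimated depth was 16000000 to 19400000 fragments per library. Some libraries stood apart from their group: the correlation of log2 values across genes was 0.896 to 0.981 within WT and 0.863 to 0.961 within the label Aomdv1, against 0.98 to 0.991 within the label Aovps1. WT library 3 lay more than 1 above the mean of the other two WT libraries, on the log2 scale, for 21% of the tested loci. Genes found by annotation keywords for conidiation and spores (17 genes, 15 of them tested) summed to 1753 to 2259 FPKM in WT. The sums were 206 to 296 under Aomdv1 and 231 to 258 under Aovps1. None of the 17 was at 0 in every library. Without the hydrophobin AOL_s00006g570 the sums were 322 to 356, 205 to 294 and 231 to 258. By limma 1 of the 15 rose and 1 fell under Aomdv1, and 1 rose and 2 fell under Aovps1. With that hydrophobin left out, 1 rose and 0 fell under Aomdv1, and 1 rose and 1 fell under Aovps1. Of all tested loci 5.62% rose and 4.22% fell under Aomdv1, and 8.61% rose and 5.21% fell under Aovps1. The part of spore content in the results below was not tested. In bulk RNA, fewer cells of a type and less RNA per cell cannot be told apart.

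In Neurospora crassa and in yeast, genes of phosphate uptake and release are switched by one pathway. When phosphate is scarce, a transcription factor (NUC-1 in Neurospora, Pho4 in yeast) turns on permeases and secreted phosphatases. When phosphate is plentiful, a cyclin and its kinase (PREG and PGOV in Neurospora, Pho80 and Pho85 in yeast) keep that factor inactive, and the ankyrin protein NUC-2 (Pho81 in yeast) counters the kinase. The pho-4 type permease takes up phosphate together with sodium. Alkaline phosphatases and phytases cleave phosphate from esters and from phytate, the phosphate store of plant material, and GIT permeases import the phosphate-bearing remains of phospholipids.

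Of the 8 genes, 5 were lower in every mutant library of both labels than in every WT library, and 3 overlapped WT. Among all 10318 loci that reached FPKM 1 in at least 3 libraries, 8.56% lay wholly below WT under the label Aomdv1, 13.0% under Aovps1 and 6.74% under both. The 5 low genes were 1 permease of the pho-4 type, GIT3, 1 alkaline phosphatase and 2 phytase-type genes. The other 3 genes were 1 of each pair of permeases and alkaline phosphatases and 1 phytase. The mean of that phytase, AOL_s00170g3, was 98.6% of WT under Aomdv1 and 161% under Aovps1. All 8 passed the filter on low values. Together the 8 genes took 0.0986, 0.18 and 0.313% of all FPKM in WT libraries 1, 2 and 3, and 0.00712 to 0.0145% in the 6 mutant libraries.

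**Figure D1:**
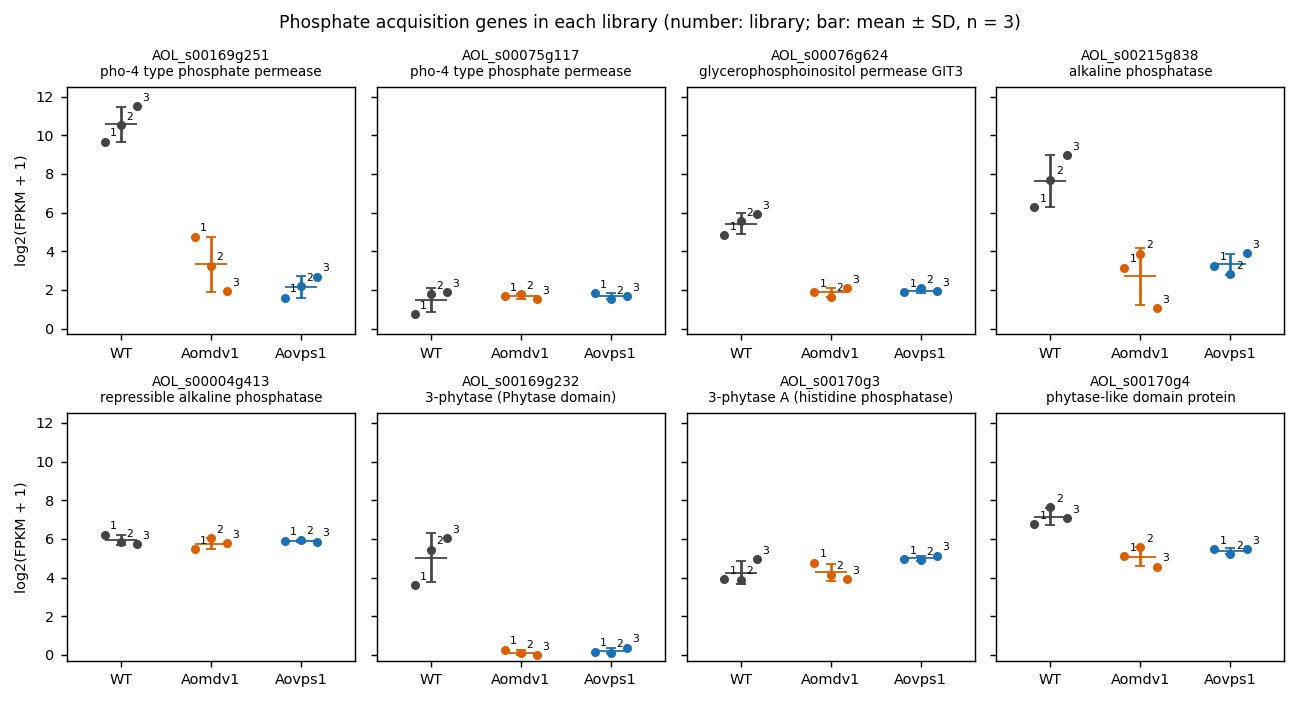
Level of each of the 8 genes as log2(FPKM + 1) in every library, with the library number beside each point and the group mean ± SD (n = 3) as a bar. The permease AOL_s00169g251, GIT3, the alkaline phosphatase AOL_s00215g838 and the phytase-type genes AOL_s00169g232 and AOL_s00170g4 show WT points above all mutant points, and the other 3 genes overlap.

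The permease AOL_s00169g251 (NW_011645726.1, 851017 to 852961, plus strand) is annotated as phosphate-repressible permease pho-4. It held 808.2, 1457.9 and 2897.85 FPKM in WT libraries 1 to 3, rank 89 of all loci by WT mean. Under the label Aomdv1 it held 25.86, 8.57 and 2.86 FPKM, and under Aovps1 2.02, 3.54 and 5.43 FPKM. The lowest WT library was 31.3 times the highest Aomdv1-labelled library and 149 times the highest Aovps1-labelled one. Means were 1721 ± 1069 in WT, 12.4 ± 12 and 3.66 ± 1.71 (SD, n = 3), so 0.722% and 0.213% of the WT mean remained. The differences of -7.24 and -8.40 in log2(FPKM + 1) ranked 3rd and 2nd deepest of the 10318 loci. Even its lowest value, 2.02 FPKM, stood for about 71.5 fragments at the estimated depth.

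The second permease with the same annotation, AOL_s00075g117 (NW_011645632.1, 454825 to 456737, minus strand), was a low transcript throughout. Its values were 0.67, 2.44 and 2.72 FPKM in WT, 2.22, 2.47 and 1.88 under Aomdv1 and 2.58, 1.86 and 2.21 under Aovps1. The 3 groups overlapped, and the differences from WT were 0.20 and 0.21. With median-ratio scaling of the libraries they were 0.10 and -0.02. About 24.4 to 89.8 fragments lay behind each value. In the mutants the levels of both permeases lay closer together than in WT: the ratio of the first to the second was 598 to 1206 in WT libraries, 1.52 to 11.6 under Aomdv1 and 0.783 to 2.46 under Aovps1.

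GIT3 (AOL_s00076g624; NW_011645633.1, 2120658 to 2122351, minus strand) is annotated after the major glycerophosphoinositol permease of Candida albicans, while its KEGG entry places it with inorganic phosphate transporters of the major facilitator superfamily. It held 27.38, 46.06 and 59.56 FPKM in WT, 2.71, 2.13 and 3.22 under Aomdv1 and 2.71, 3.24 and 2.82 under Aovps1. The lowest WT value was 8.50 and 8.45 times the highest value of each mutant label. The means of 2.69 ± 0.545 and 2.92 ± 0.28 were 6.06 and 6.59% of the WT mean of 44.3 ± 16.2 (differences -3.56 and -3.46). The mutant libraries varied little for this gene, with a coefficient of variation of 20.3 and 9.57%, against 36.4% in WT.

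The alkaline phosphatase AOL_s00215g838 (NW_011645772.1, 2867074 to 2869169, minus strand) frees phosphate from esters. It held 77.3, 206.31 and 501.2 FPKM in WT, a spread of 6.48-fold, the widest among the 8 genes. Under Aomdv1 it held 7.94, 13.72 and 1.09 FPKM and under Aovps1 8.57, 6.06 and 13.89 FPKM. No mutant library reached the lowest WT library, which was 5.63 and 5.57 times the highest mutant one. The means were 2.9 and 3.63% of the WT mean of 262 ± 217, and the differences were -4.95 and -4.33.

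The other alkaline phosphatase, AOL_s00004g413 (NW_011645561.1, 1409015 to 1411108, minus strand), is the one whose best Swiss-Prot hit is the repressible alkaline phosphatase of budding yeast, an enzyme of the vacuole. It was the steadiest of the 8 genes in WT, at 73.54, 56.46 and 51.43 FPKM. Its values were 43.04, 64.61 and 53.56 under Aomdv1 and 58.79, 61.43 and 57.24 under Aovps1. The groups overlapped, with differences of -0.17 and -0.02. Median-ratio scaling gave -0.32 and -0.36. The order of the phosphatases differed between WT and mutants: AOL_s00215g838 was 1.05, 3.65 and 9.75 times AOL_s00004g413 in WT libraries 1 to 3, and 0.0204 to 0.243 times in the 6 mutant libraries.

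**Figure D2:**
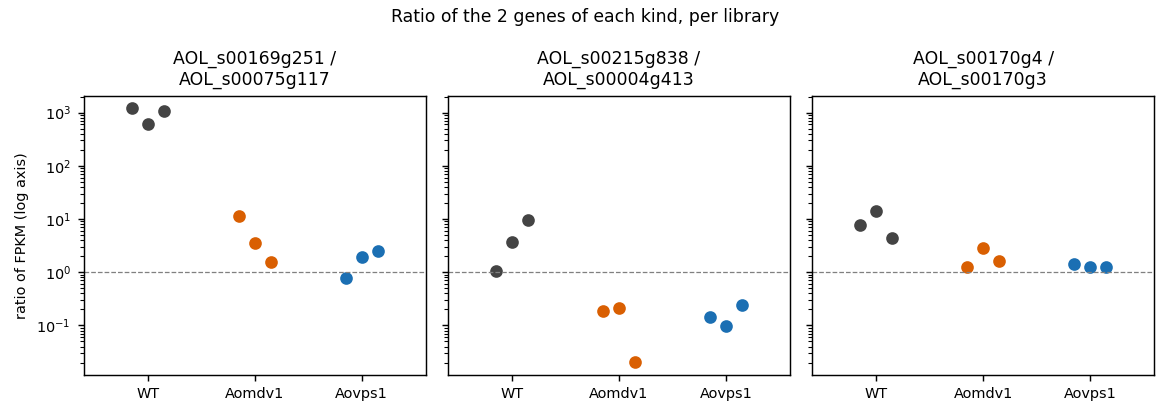
Ratio of FPKM of the 2 genes of each kind in every library, on a log axis, for the pho-4 type permeases, the alkaline phosphatases and the adjacent phytase-type genes. WT points lie above the mutant points in each panel, and the alkaline phosphatase ratio is above 1 in all WT libraries and below 1 in all mutant libraries.

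The phytase AOL_s00169g232 (NW_011645726.1, 798058 to 800533, plus strand) carries the Phytase domain and the KEGG entry of 3-phytase. It went from 11.25, 42.5 and 65.3 FPKM in WT libraries to 0.2, 0.07 and 0 under Aomdv1 and 0.12, 0.09 and 0.29 under Aovps1. In the mutants these are traces, about 0 to 8.62 fragments under Aomdv1 and 4.22 to 13.9 under Aovps1, and the value listed at 0 allows up to 0.0757 FPKM (3 fragments, counting error only). The differences of -4.92 and -4.82 depend on the pseudocount and were -7.52 and -6.96 with a pseudocount of 0.1. This gene lies on the same scaffold as the abundant permease, 50483 bp away with 21 loci between them.

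The last pair of phytase-type genes are direct neighbours near the end of a scaffold, transcribed away from each other with 1882 bp between them. AOL_s00170g3 (NW_011645727.1, 5896 to 7613, minus strand) is annotated as 3-phytase A, a histidine phosphatase. It held 14, 13.94 and 29.82 FPKM in WT, 26.26, 16.68 and 13.99 under Aomdv1 and 29.98, 28.63 and 34.31 under Aovps1. The Aomdv1-labelled libraries lay within the WT range. The Aovps1-labelled ones lay near and above its top, with a difference of 0.74 that was 0.41 with median-ratio and 0.42 with quantile scaling.

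AOL_s00170g4 (NW_011645727.1, 9496 to 11215, plus strand) codes for a protein with the esterase-like phytase domain, whose best Swiss-Prot hit is an uncharacterized secreted protein. It held 107.18, 199.54 and 133.45 FPKM in WT, 33.08, 46.56 and 22.75 under Aomdv1 and 43.01, 35.68 and 43.03 under Aovps1. All mutant libraries were below all WT libraries. Of the 5 low genes its differences were the smallest, -2.08 and -1.79, leaving 23.3 and 27.7% of the WT mean of 147 ± 47.6. The ratio of AOL_s00170g4 to its neighbour AOL_s00170g3 was 4.48 to 14.3 in WT and 1.25 to 2.79 in the mutant libraries.

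The order of the levels differed between WT and the mutants. In WT the permease AOL_s00169g251 led (mean 1721 FPKM) and did not overlap the next gene, AOL_s00215g838 (262). AOL_s00215g838 overlapped AOL_s00170g4 (147). AOL_s00004g413 (60.5), GIT3 (44.3), AOL_s00169g232 (39.7) and AOL_s00170g3 (19.3) followed, each overlapping the next. The permease AOL_s00075g117 (1.94) was last and apart. Under both mutant labels AOL_s00004g413 led, with 53.7 and 59.2 FPKM, AOL_s00170g4 (34.1 and 40.6) and AOL_s00170g3 (19.0 and 31.0) followed, and AOL_s00169g232 (0.09 and 0.167) was last. Under Aomdv1 each gene overlapped the next in order except before AOL_s00169g232. Under Aovps1 only AOL_s00169g251 and GIT3, at 3.66 and 2.92 FPKM, overlapped as neighbours in the order.

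The WT libraries themselves differed in these genes. For 6 of the 8 genes WT library 3 was the highest, and for 6 library 1 was the lowest. Library 3 exceeded the mean of the other two WT libraries, in log2(FPKM + 1), by 1.98 for AOL_s00215g838, 1.52 for AOL_s00169g232, 1.42 for AOL_s00169g251, 1.04 for AOL_s00170g3, 0.73 for GIT3 and 0.63 for AOL_s00075g117, and by -0.13 and -0.32 for AOL_s00170g4 and AOL_s00004g413. The median over all tested loci was 0.26. Within the label Aomdv1, library 3 was the lowest for 6 of the 8 genes. That library also stood apart over the whole table, with 11133 loci above 0 FPKM against 11743 to 12302 in the other libraries. These counts of highest and lowest libraries were not taken over all loci, so they are not shown to be particular to the 8 genes. With 1 library left out at a time, the difference of AOL_s00169g251 ranged from -7.95 to -6.55 under Aomdv1 and from -8.85 to -7.93 under Aovps1, and that of AOL_s00215g838 from -5.63 to -4.13 and from -5.01 to -3.67.

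The comparison between the mutants was not used to choose the genes and could be tested. All 9 libraries entered one linear model (limma-trend, two-sided moderated test, Benjamini-Hochberg adjustment over 10318 loci, threshold 0.05). AOL_s00169g232 passed the filter only through its WT values and was at trace level under both labels. Its small difference is set by the pseudocount (0.10, and 0.56 with a pseudocount of 0.1), so the test says nothing of that gene. Of the other 7 genes 0 were called, and 0 had an unadjusted p under 0.05. Over all loci 0 were called (0.0%), with 978 at an unadjusted p under 0.05. The difference, Aovps1-labelled minus Aomdv1-labelled, was -1.16 for AOL_s00169g251 (95% interval -2.68 to 0.35, limma adjusted p = 0.566), 0.72 for AOL_s00170g3 (-0.11 to 1.55, limma adjusted p = 0.549) and 0.62 for AOL_s00215g838 (-1.13 to 2.37, limma adjusted p = 0.771). For AOL_s00075g117, GIT3, AOL_s00004g413 and AOL_s00170g4 it was 0.01 to 0.29, with adjusted p from 0.747 to 0.993. The interval was narrowest for AOL_s00004g413, -0.45 to 0.76, and GIT3 had one of -0.67 to 0.86. These intervals leave room for differences of up to 2.68 on the log2 scale for the abundant permease and 2.37 for AOL_s00215g838, so the mutants are not shown to be alike for these genes.

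**Figure D3:**
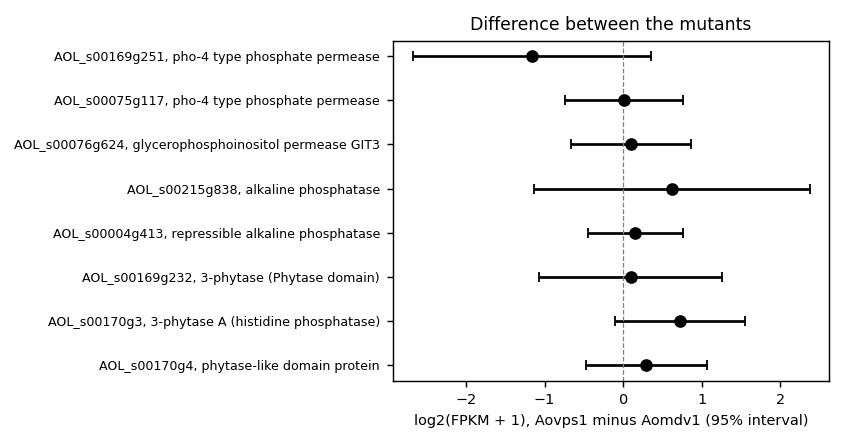
Difference in log2(FPKM + 1) between libraries labelled Aovps1 and Aomdv1 for each of the 8 genes, as a point with its 95% interval from the limma fit. Every interval includes 0, the widest belong to AOL_s00215g838 and AOL_s00169g251, and that of AOL_s00169g232 cannot be read because the gene was at trace level in both groups.

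The rest of the phosphate machinery was taken from the annotation by keyword, in 5 lists with 59 genes besides the 8, of which 53 were tested. In the libraries labelled Aomdv1, 2 of the 53 rose and 2 fell by the limma test, where 5.62% of all loci rose and 4.22% fell. Under Aovps1 4 rose and 3 fell, where 8.61% of all loci rose and 5.21% fell. The 4 genes called under Aomdv1 were also called, in the same direction, under Aovps1. These comparisons share their WT libraries. The median difference of the lists together was -0.20 and -0.16, against 0.08 and 0.30 over all tested loci. Median-ratio scaling moved the medians of all loci to -0.05 and 0.00 and the share of rising genes among all called under Aovps1 from 62.3 to 42.2%. On the lists it then gave 2 up and 5 down under Aovps1.

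**Figure D4:**
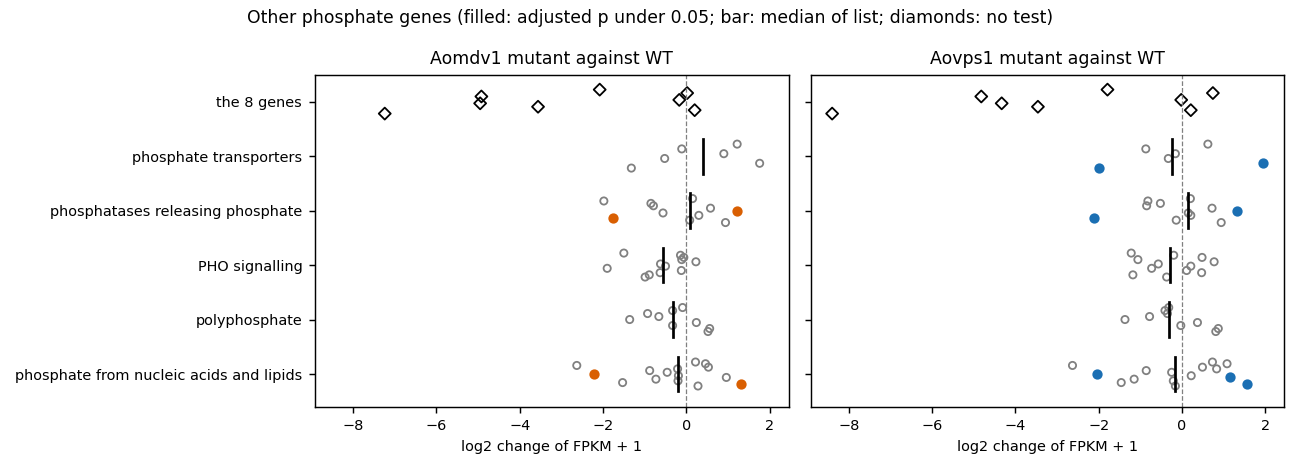
Difference from WT in log2(FPKM + 1) of every tested gene of the 5 keyword lists and of the 8 genes, for each mutant label. Filled circles passed an adjusted p of 0.05, bars mark list medians, and diamonds mark the 8 genes, which were not tested. 5 of the 8 genes lie at -1.79 or lower in both panels, and list medians lie between -0.56 and 0.40.

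On the keyword list of further phosphatases, of 11 tested 1 rose and 1 fell under each label. That list also holds a gene annotated as an inositol hexakisphosphate kinase. AOL_s00043g664, a histidine phosphatase of the family that includes phytases and acid phosphatases, held 201.87, 290.42 and 405.58 FPKM in WT, 72.77 to 103.17 under Aomdv1 and 60.39 to 74.31 under Aovps1. No mutant library reached WT. It fell by 1.75 (limma adjusted p = 0.00514) and by 2.12 (limma adjusted p = 0.00164), and both calls held in all 13 alternatives. AOL_s00078g40, a PhoD-like phosphatase, rose from 41.0 ± 4.62 FPKM to 96.1 ± 9.56 and 104 ± 12.3 (1.21 and 1.32, limma adjusted p = 0.012 and 0.00712). The first call was lost without WT library 2 (adjusted p = 0.0567) and in a fit of only the groups compared (0.0828), and the second without Aovps1-labelled library 3 (0.0534).

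Of 6 genes tested from the transporter list, 0 were called under Aomdv1 by limma, with 3 at an unadjusted p under 0.05, and under Aovps1 1 rose and 1 fell. SYG1 (AOL_s00054g202), of the family with the animal phosphate exporter XPR1, held 62.2 ± 25.3 FPKM in WT, 29.9 ± 27.3 under Aomdv1 and 14.2 ± 2.09 under Aovps1 (-1.32 and -1.99, limma adjusted p = 0.178 and 0.0367). The Aovps1 call was lost with no filter (adjusted p = 0.0524), without WT library 1 or 2 (0.0798 and 0.158) and without library 1, 2 or 3 of the label Aovps1 (0.0946, 0.115 and 0.121). Without Aomdv1-labelled library 2 the other comparison was called (-2.0, adjusted p = 0.0136). ERD1 (AOL_s00054g820), a relative of SYG1 that in yeast keeps proteins in the endoplasmic reticulum, stood at 35.8 ± 7.81 FPKM in WT, 151 ± 95 under Aomdv1 and 145 ± 52 under Aovps1 (1.76 and 1.94, limma adjusted p = 0.0834 and 0.0467). Its Aovps1 call was lost in 12 of 13 alternatives (adjusted p up to 0.173), each library left out included, and without Aomdv1-labelled library 3 the Aomdv1 comparison was called (2.50, adjusted p = 0.00163). The most abundant transporter in WT, the mitochondrial phosphate carrier AOL_s00097g316, had means of 1741, 1144 and 1274 FPKM (limma adjusted p = 0.485 and 0.597). A gene annotated as repressible high-affinity phosphate permease, AOL_s00110g169, held 0.26 to 0.93 FPKM in all 9 libraries and was not tested. The transporter list also holds AOL_s00215g299, annotated as SRP-independent targeting protein 3.

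Of 12 tested PHO signalling genes, among them preg and nuc-2 homologs, PHO85 cyclins and enzymes of inositol phosphates, 0 rose and 0 fell under either label by limma (median -0.56 and -0.28). At an unadjusted p under 0.05 there were 1 under Aomdv1 and 3 under Aovps1, all lower. The signalling list also holds a gene annotated as an uncharacterized transporter, AOL_s00112g5. The nuc-2 homolog AOL_s00188g49 held 14.66, 20.22 and 39.45 FPKM in WT, 3.24 to 14.05 under Aomdv1 and 8.1 to 10.03 under Aovps1. No mutant library reached its lowest WT library, but it was not called (-1.50 and -1.22, limma adjusted p = 0.0953 and 0.131). The other nuc-2 homolog, AOL_s00054g185, was at -0.12 and 0.11 (limma adjusted p = 0.855 and 0.833). AOL_s00083g224 is annotated as negative regulator of the PHO system. It held 72.74 to 84.74 FPKM in WT, 45.06 to 140.18 under Aomdv1 and 126.75 to 139.7 under Aovps1. All its Aovps1-labelled libraries lay above WT, but it was not called (0.23 and 0.77, limma adjusted p = 0.778 and 0.21). The preg homologs AOL_s00043g442 (-0.63 and 0.47) and AOL_s00169g14 (-0.14 and -0.20) were not called either (limma adjusted p from 0.512 to 0.892). Genes not called are not shown to be unchanged. The keywords, which included NUC-1 and Pho4, brought no gene annotated as the transcription factor itself into this list. A homolog annotated under another name would have been missed. The most abundant, PHO85 cyclin-1 (AOL_s00078g9), had means of 591, 439 and 685 FPKM in WT, Aomdv1 and Aovps1 (limma adjusted p = 0.378 and 0.689). Of 9 genes tested from the polyphosphate list, 0 rose and 0 fell by limma (median -0.33 and -0.32), with 1 and 2 at an unadjusted p under 0.05. In that list 5 genes make or cut phosphate chains (vacuolar transporter chaperones 1, 2 and 4, an exopolyphosphatase and an endopolyphosphatase), and the other 4 are 3 inositol polyphosphate enzymes and inorganic pyrophosphatase. Inorganic pyrophosphatase (AOL_s00054g572), which splits pyrophosphate, was the most abundant, with means of 565, 662 and 720 FPKM (limma adjusted p = 0.63 and 0.353).

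Of 15 tested genes on the keyword list for phosphate from nucleic acids and lipids, 1 rose and 1 fell under Aomdv1 and 2 rose and 1 fell under Aovps1. Not all of them are annotated as releasing phosphate: the list holds a lipid transfer protein and a regulator of phospholipase D. A ribonuclease T2-like gene (AOL_s00078g542), of a family of secreted RNA-cleaving enzymes, fell from 13.82, 20.8 and 85.39 FPKM in WT to 4.37 to 8.05 under Aomdv1 and 5.05 to 8.00 under Aovps1 (-2.21 and -2.04, limma adjusted p = 0.039 and 0.0437). Without WT library 2 the adjusted p was 0.0831 and 0.0906, and it was also above the threshold without Aomdv1-labelled library 1 or 2 (0.105 and 0.0948) and without Aovps1-labelled library 1, 2 or 3 (0.15, 0.12 and 0.103). With no filter it was 0.061 and 0.0657, and the Aomdv1 call was also lost with quantile scaling (0.0502) and in the fit of only the groups compared (0.111). A phospholipase C gene (AOL_s00007g83), which cleaves phosphatidylinositol bisphosphate, rose from 40.0 ± 13.5 to 98.6 ± 11.7 and 118 ± 22.5 FPKM (1.32 and 1.56, limma adjusted p = 0.0214 and 0.0082). The Aomdv1 call was lost without WT library 1 or 2 (0.086 and 0.1), without Aomdv1-labelled library 1 or 2 (0.0653 and 0.0547) and in the fit of only the groups compared (0.0915), and the Aovps1 call without Aovps1-labelled library 3 (0.0534). A phosphatidylglycerol phospholipase C gene (AOL_s00075g216) rose under Aovps1 from 6.13 ± 2.38 to 14.6 ± 3.39 FPKM (1.16, limma adjusted p = 0.05 after rounding). That call was lost in 9 of 13 alternatives, with adjusted p of 0.149 and 0.0698 without WT libraries 2 and 3 and of 0.197, 0.0853 and 0.173 without Aovps1-labelled libraries 1, 2 and 3. The most abundant gene of the list in WT, a phosphatidylglycerol/phosphatidylinositol transfer protein gene (AOL_s00054g46), had means of 795, 487 and 337 FPKM (limma adjusted p = 0.36 and 0.103), and without WT library 3 it was called under Aovps1 (-1.55, adjusted p = 0.027).

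The 2 loci on each side of each gene gave 28 neighbours, of which 23 were tested. Under Aomdv1 1 rose and 1 fell, and under Aovps1 1 rose and 2 fell, out of the same background shares as above. Beside the abundant permease AOL_s00169g251, the neighbour AOL_s00169g250 codes for a mitochondrial phosphate carrier. It held 126 ± 15, 293 ± 236 and 114 ± 21.2 FPKM in WT, Aomdv1 and Aovps1 (limma adjusted p = 0.324 and 0.853). Its Aomdv1-labelled libraries 1 to 3 held 109.48, 211.12 and 559.25 FPKM. The large difference of that permease had no called counterpart among its 3 tested neighbours. Its remaining neighbour, AOL_s00169g252, was below the filter and not tested. It held 0.55, 0.99 and 2.01 FPKM in WT and 0 to 0.18 in the mutant libraries. The other neighbours below the filter also had lower means under both labels than in WT. Among them AOL_s00169g233, beside AOL_s00169g232, had a mean of 0.48 FPKM in WT and 0 in all mutant libraries. AOL_s00170g2, beside AOL_s00170g3, had means of 0.507, 0.08 and 0.0267 FPKM in WT, Aomdv1 and Aovps1. Beside GIT3, the tyrosinase-like gene AOL_s00076g623, on the same strand and 1755 bp away, fell from 9.15, 8.39 and 11.67 FPKM in WT to 0.86 to 2.02 under Aomdv1 and 0.91 to 1.18 under Aovps1 (-2.24 and -2.38, limma adjusted p = 0.000896 and 0.000561). The calls held in all 12 alternatives in which the gene was tested. Beside AOL_s00215g838, a putative adhesin gene (AOL_s00215g839), on the opposite strand and 3490 bp away, rose from 174 ± 15.1 to 1134 ± 623 and 698 ± 213 FPKM (2.53 and 1.95, limma adjusted p = 0.00366 and 0.0137). Its Aovps1 call was lost without WT library 2 (0.0528) and without Aovps1-labelled library 1 or 3 (0.0657 and 0.0687). An uncharacterized locus that is the second neighbour of AOL_s00075g117 fell under Aovps1 by 1.98 (limma adjusted p = 0.0306). The call was lost with the replicate block (adjusted p = 0.0516), without WT library 2 or 3 (0.0758 and 0.0502) and without Aovps1-labelled library 1, 2 or 3 (0.103, 0.098 and 0.0959). Under Aomdv1 its difference was -1.05 (limma adjusted p = 0.265).

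**Figure D5:**
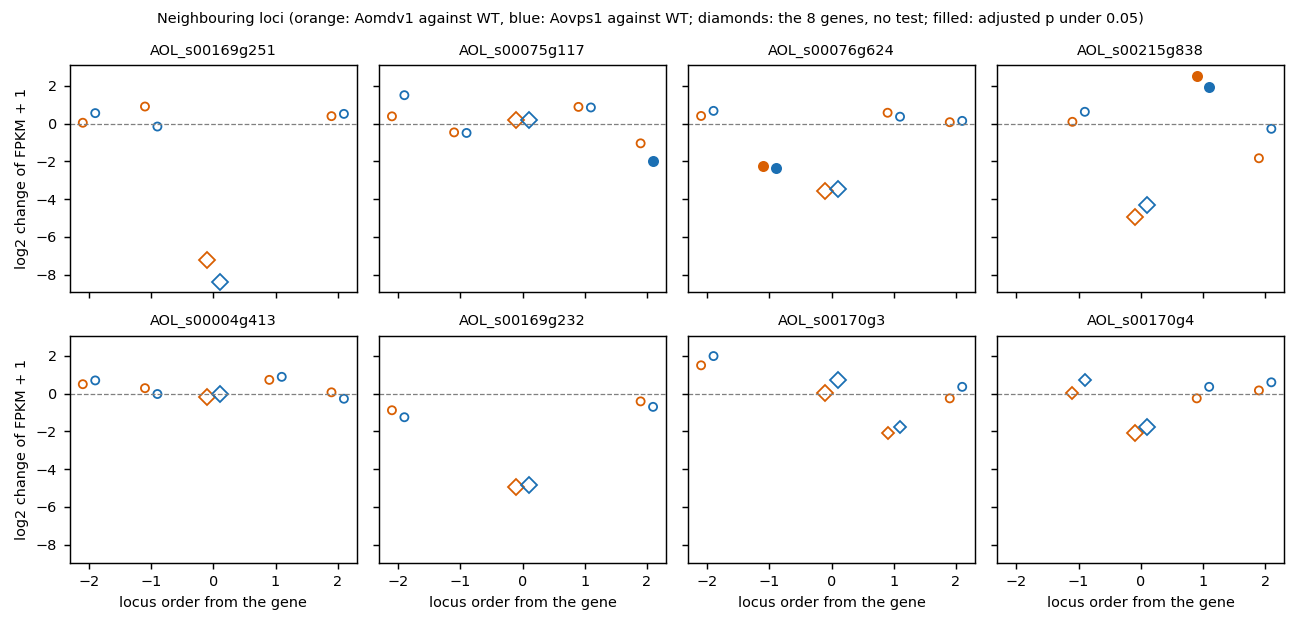
Difference from WT in log2(FPKM + 1) of each of the 8 genes (diamonds at 0, and at the neighbouring place for the adjacent phytase-type genes) and of up to 2 tested loci on each side, in order along the scaffold, with orange for Aomdv1 and blue for Aovps1. Filled circles passed an adjusted p of 0.05. Beside GIT3 the locus before it also lies low, at -2.24 and -2.38, and beside AOL_s00215g838 the locus after it lies high, at 2.53 and 1.95.

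Likeness of pattern was described by Pearson's r with the permease AOL_s00169g251 over the 9 libraries, which share the 3 groups, so genes low in both mutants score high. Among the 8 genes r was 0.967 for AOL_s00169g232, 0.964 for GIT3, 0.935 for AOL_s00215g838 and 0.917 for AOL_s00170g4. It was 0.036 for AOL_s00004g413, -0.178 for AOL_s00075g117 and -0.290 for AOL_s00170g3. Among 5990 other annotated loci with a WT mean of at least 5 FPKM, 39 had r over 0.95. The most alike was the neighbour of GIT3, AOL_s00076g623 (0.989). Then came AOL_s00109g167 (0.985), whose hit is an uncharacterized fission yeast protein, the tetratricopeptide repeat gene AOL_s00054g538 (0.985), the polyamine transporter TPO5 (AOL_s00054g294, 0.98) and a short-chain dehydrogenase (AOL_s00215g823, 0.979). AOL_s00109g167 held 213.11, 354.07 and 732.07 FPKM in WT, with library 3 highest and library 1 lowest as for the permease, and 20.45 to 47.73 FPKM in the 6 mutant libraries.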

How the data were processed

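One table of FPKM values (fragments scaled to gene length and library size by the authors, rounded to 2 decimals) was deposited for 9 libraries. Aligner, counting program and genome build: not given in the sources used here. Scaffold coordinates are those of the table and equal those of RefSeq assembly AOL24927 for the 8 genes. Columns were matched to libraries by title, with 0 columns of other samples. Depth was taken from the spacing of low values of loci under 700 bp, using gene spans and trial depths of 8000000 to 25000000 fragments; 68.2 to 82.6% of those values then lay within 0.1 of a whole number.

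Values were analysed as log2(FPKM + 1) for the 10318 loci that reached FPKM 1 in 3 or more libraries, with limma 3.58.1 in R 4.3.3 (trend, all 9 libraries, no replicate term, Benjamini-Hochberg). On simulated data with 100 genes changed by each size, 2 and 0% of changes of 1 (log2) and 58 and 51% of changes of 2 were recovered for the Aomdv1 and Aovps1 comparisons, so smaller changes can go uncalled. Only genes of higher WT level were changed in the simulation. They were fewer than those called in the data (580 up and 435 down under Aomdv1, 888 up and 538 down under Aovps1). The adjustment depends on how many genes change, so these rates do not carry over to the data. An exact permutation test of 3 against 3 cannot go below p = 0.1. The genes and lists were chosen with earlier results of these data known. Lists came from keywords in Swiss-Prot, NR and Pfam annotation and hold some odd members, such as inositol polyphosphate enzymes. Named were the 8 genes, up to 3 called genes per list and direction and the most abundant gene per list, neighbours called in both mutants and the 5 most alike genes. AOL_s00110g169, AOL_s00169g250, AOL_s00169g252, AOL_s00110g143, the nuc-2 homologs AOL_s00188g49 and AOL_s00054g185 and an uncharacterized neighbour of AOL_s00075g117 were chosen after their values were seen. So were AOL_s00083g224, the preg homologs AOL_s00043g442 and AOL_s00169g14, and the neighbours AOL_s00169g233 and AOL_s00170g2. Alternatives were another pseudocount, 2 filters, 2 scalings, a replicate block, a fit of the groups compared and leaving out each library.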

Additional observations from a re-analysis of the deposited data

How the results depend on the processing

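Between the mutants 0 of the genes tested were called in any alternative; 7 of the 8 were tested with the filter at a mean FPKM of 5 (not AOL_s00075g117) and in the 2-group fit (not AOL_s00169g232), and the other alternatives tested all 8. Uncalled differences between the mutants turned sign: with median-ratio scaling AOL_s00075g117 was at -0.12, AOL_s00076g624 at -0.05 and AOL_s00004g413 at -0.04; with quantile scaling AOL_s00075g117 and AOL_s00076g624 were at -0.16 and AOL_s00169g232 at -0.03. Without single libraries the lowest and highest values were -0.07 and 0.09 for AOL_s00075g117, -0.01 and 0.20 for AOL_s00076g624 and -0.20 and 1.21 for AOL_s00215g838. PHO85 cyclin-1 (AOL_s00078g9) under Aovps1 was at -0.14 with median-ratio scaling.

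Counts of called genes were small and unstable; the cause was not tested. For the phosphate lists (2 up and 2 down under Aomdv1, 4 up and 3 down under Aovps1), a fit of only the 2 groups gave 0 and 1, and 7 and 7. No filter gave 1 down under Aomdv1 and 2 up and 1 down under Aovps1. Under Aovps1 median-ratio scaling gave 2 up and 5 down and quantile scaling 2 and 6. Without single libraries the ranges were 0 to 3 up and 1 to 3 down under Aomdv1, and 0 to 5 up and 1 to 6 down under Aovps1; the highest counts under Aovps1 came without WT library 3 and the lowest without Aovps1-labelled library 3. For neighbours (1 and 1 under Aomdv1, 1 and 2 under Aovps1), no filter gave 3 and 4 down, a filter at a mean FPKM of 5 gave 0 and 1 down, and the 2-group fit 3 up under Aovps1. Without single libraries they were 1 to 3 up and 1 to 1 down under Aomdv1, and 0 to 6 up and 1 to 3 down under Aovps1.

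The deviations of same-numbered libraries from their group means correlated at -0.283 to 0.387, highest for library 2 of WT and of the label Aomdv1. Differently numbered libraries were not compared, so whether the numbers pair the libraries is not settled. The replicate block gave 2 phosphate genes up under Aovps1 instead of 4, and 1 neighbour down instead of 2. Depth limits AOL_s00169g232 in the mutants, where 3 fragments are 0.0625 to 0.0757 FPKM.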

Other observations

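A glycerophosphoryl diester phosphodiesterase gene (AOL_s00110g143), of enzymes that split deacylated phospholipids, was singled out after its values were seen. It held 14.27, 102.68 and 473.36 FPKM in WT libraries 1 to 3, 4.82 to 24.58 under the label Aomdv1 and 12.31 to 16.94 under Aovps1. WT library 1 lay within the range of the mutant libraries of each label, and the differences of -2.63 under each label were not called (limma adjusted p = 0.156 and 0.117). On the list for phosphate from nucleic acids and lipids, 7 of 15 lay more than 1 (log2) higher in WT library 3 than in the mean of the other two WT libraries, as did 4 of the 8 phosphate acquisition genes, against 21% of all tested loci. On the phosphate transporter list 1 of 6 did. AOL_s00169g252, the low neighbour downstream of the abundant permease, held 0.55, 0.99 and 2.01 FPKM in WT and 0 to 0.18 in the mutant libraries, too low for the filter. The other neighbours below the filter also had lower means under both labels than in WT.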
